A study of Rattus norvegicus with 13 samples.

Results

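Regenerating axons of cultured rat cortical neurons were compared with uninjured axons of the same kind of culture, gene by gene, on 3 and 7 arrays. These 10 arrays were taken by their titles from the 13 arrays of the study. The other 3, of the neuronal compartment, serve only as values set beside the axonal ones. Neurons were grown in a compartmentalised microfluidic platform, a device in which axons cross into a chamber of their own and can be collected apart from the cell bodies. Both groups were collected after 13 days in culture. The regenerating axons had been cut (axotomy) on day 11 and had 2 days to regrow, and the uninjured axons had not been cut. No genotype, strain or drug is named in the labels. All groups shared a Neurobasal E medium with B27. The labels do not name the cells that such cultures hold besides neurons, and nothing in them says that arrays of one group stem from different cultures. The spread between arrays may therefore be technical. Each array held polyadenylated RNA pooled from 3 platforms and amplified in 2 rounds.

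An axon holds messenger RNAs of its own, carried out of the cell body by RNA-binding proteins and motors and translated locally. Transcripts for ribosomal proteins, the respiratory chain and the cytoskeleton are well known in axons. After a cut, the axon stump forms a new growth cone. Local translation there makes cytoskeletal and mitochondrial proteins and the importins that carry injury signals back to the nucleus.

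The deposited table gives ratios. Of its 31099 probe sets 20826 carry a single gene symbol, and these cover 14217 genes. In every row the median of uninjured arrays 1 to 3 is 1, and so is that of arrays 4 to 6, so these arrays read as 2 sets, each scaled to its own median. Any difference between the sets is lost by this, and uninjured ranges may be too narrow. Uninjured array 7 reads 1 throughout and carries no measurement, which leaves 6 uninjured arrays. The uninjured median of a gene is therefore 1 or close to it by construction, and the lowest and highest uninjured values carry the information. The divisor of the regenerating arrays is not given in the sources used here and was taken to be the uninjured level. All directions below rest on that reading. A gene passed when its adjusted p was under 0.05 in limma, with Benjamini-Hochberg adjustment over all 14217 genes and the divisor counted with the error of 1 array. Differences are given as log2 ± SE (n = 3 arrays), and the number of arrays limits their precision. In a bulk sample, fewer axons of a kind and less RNA per axon cannot be told apart.

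The arrays differed in width before any gene was considered. The SD of the log2 ratios over genes was 0.48 in regenerating array 1, 0.69 in array 2 and 0.68 in array 3. In that order, 673, 817 and 818 genes were at least 2-fold below the reference, and 125, 360 and 351 were at least 4-fold below it. At least 2-fold above it were 33, 48 and 66 genes. The departure was one-sided, and array 1 showed the same side at a smaller size. Among the uninjured arrays, array 1 stood apart on the low side, with 227 genes at least 2-fold lower against 1 to 57 in the others. Array 4 stood apart on the high side, with 282 genes at least 2-fold higher. Among them were the glial genes *Fabp7* (ratio 14.7) and *Pdgfra* (12.8), and also *Pcna* (10.2) and *Hspa5* (5.03). The astrocyte and oligodendrocyte lineage lists described below had medians of log2 -0.01 and 0.01 on that array.

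**Figure D1:**
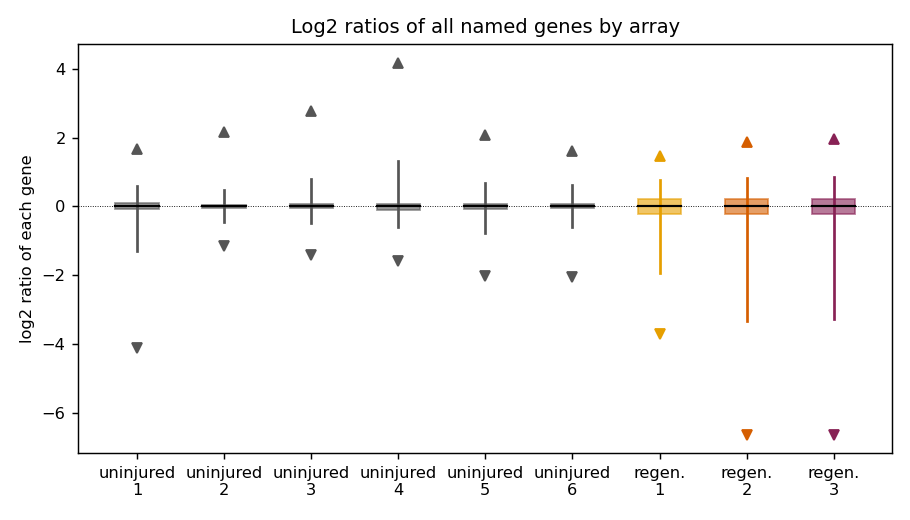
Log2 ratios of 14217 genes on the 6 measured uninjured arrays and the 3 regenerating arrays. Boxes span the 25th to 75th percentile, black lines are medians, whiskers leave out the outermost 1% of genes on each side, and triangles mark the lowest and highest gene. The lower whisker reaches -1.94 in regenerating array 1, -3.35 in array 2 and -3.27 in array 3, while uninjured array 1 reaches -1.31 and the upper whiskers of the regenerating arrays stay under 0.86.

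Some control probe sets also differed. For beta-actin and GAPDH the 3′ probe set minus the 5′ one, in log2 and averaged over both genes, compares the ends of a transcript. It was -0.23, -0.88 and -0.61 in regenerating arrays 1 to 3. The group mean was -0.57 ± 0.33 (SD, n = 3), against 0.09 ± 0.11 (SD, n = 6) in uninjured axons. The groups did not overlap in this average. For beta-actin alone they did, with regenerating array 1 at 0.02 against -0.05 to 0.23 in uninjured axons. The GAPDH 3′ probe set was itself low, at ratios of 0.355, 0.159 and 0.142 against 0.620 to 1.42, so the difference need not show evenness of copying. The uninjured values are centred within their sets by construction and the regenerating ones are not, so the planned permutation test was not read. Hybridisation controls, bacterial and phage transcripts added to every array, averaged 1.16, 1.37 and 1.54 in the regenerating arrays. They averaged 0.956 to 1.18 in the uninjured ones, with the highest of these in uninjured array 1. The phage (cre) probe sets among them read 0.898 to 1.16 in the regenerating arrays. Another 27 bacterial control probe sets did not differ, averaging 1.01, 0.996 and 1.04 against 0.944 to 1.05. The part of the controls in the results was not tested.

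The first question is which axonal transcripts differed after regrowth. Of 14217 genes, 98 fell (0.689%) and 5 rose (0.0352%) in regenerating axons. Chaperones, mitochondrial subunits and a growth-related gene lead the falls, and the rises stayed near 2-fold. Without a test, 530 genes (3.73%) were at least 2-fold lower in all 3 regenerating arrays and 5 (0.0352%) at least 2-fold higher in all 3. In 1780 genes (12.5%) all 3 regenerating arrays lay below uninjured arrays 1 to 6, and in 1458 (10.3%) all 3 lay above. At an unadjusted p under 0.05 in limma, 1247 genes were lower and 522 higher. Together these were 12.4% of all genes, the share beside which list counts in both directions are to be read. List counts of lower genes alone are to be read beside 1247 of 14217.

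These calls lie close to the threshold and depend on single arrays. Without regenerating array 1 the same limma fit called 361 lower and 15 higher genes. Without array 2 it called 3 and 0, and without array 3 it called 0 and 0, with 1664 genes at an unadjusted p under 0.05. Without uninjured array 1 it called 256 and 6, and without array 3 it called 151 and 3. Without uninjured array 2 it called 4 and 0, without array 5 it called 66 and 2, and without array 6 it called 8 and 0. All 103 called genes were called again without regenerating array 1 and without uninjured array 1. Uninjured array 1 was the lowest of its set of 3 in 67.3% of the 98 genes and in 85.1% of the 530 genes, against 36.6% of all genes. Its part in the result was not tested beyond the fit without it.

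Among genes past the threshold, the largest fall belonged to *Nrep*, the neuronal regeneration-related protein gene, named for its expression in regrowing neurons. Its ratios were 0.0765, 0.0238 and 0.0220 in regenerating arrays 1, 2 and 3, and ran from 0.673 to 1.69 in uninjured axons. All 3 regenerating arrays lay far below the uninjured range, at a 29.2-fold lower mean (log2 -4.87 ± 0.65, limma adjusted p = 0.0306). *Pfdn5* encodes a subunit of prefoldin, which hands unfolded actin and tubulin to a chaperonin. It read 0.104, 0.0492 and 0.0454, against 0.867 to 2.06 in uninjured axons, and was 16.3-fold lower. *Cct7*, a subunit of that chaperonin, read 0.133, 0.0929 and 0.0725, against 0.651 to 1.63, and was 10.4-fold lower. In both genes array 1 was the highest of the 3 regenerating arrays and still below every uninjured array.

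*Ctnna2* encodes the neuronal alpha-catenin, which joins cadherins to actin. It read 0.158, 0.0600 and 0.0606, and its uninjured range of 0.380 to 1.28 had uninjured array 1 at the bottom (log2 -1.39). *Rtn2*, a reticulon of the axonal endoplasmic reticulum, read 0.199, 0.0998 and 0.0819, against 0.474 to 1.30. The histone gene *Hist3h2ba* read 0.187, 0.0879 and 0.133, against 0.485 to 1.23. These 3 genes fell 12-fold, 8.50-fold and 7.70-fold, and in each of them uninjured array 1 was the lowest uninjured array. The other 4 of the 10 largest falls, *Hspe1*, *Cox7b*, *Timm13* and *Mrpl27*, belong to mitochondria and are described with them.

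**Figure D2:**
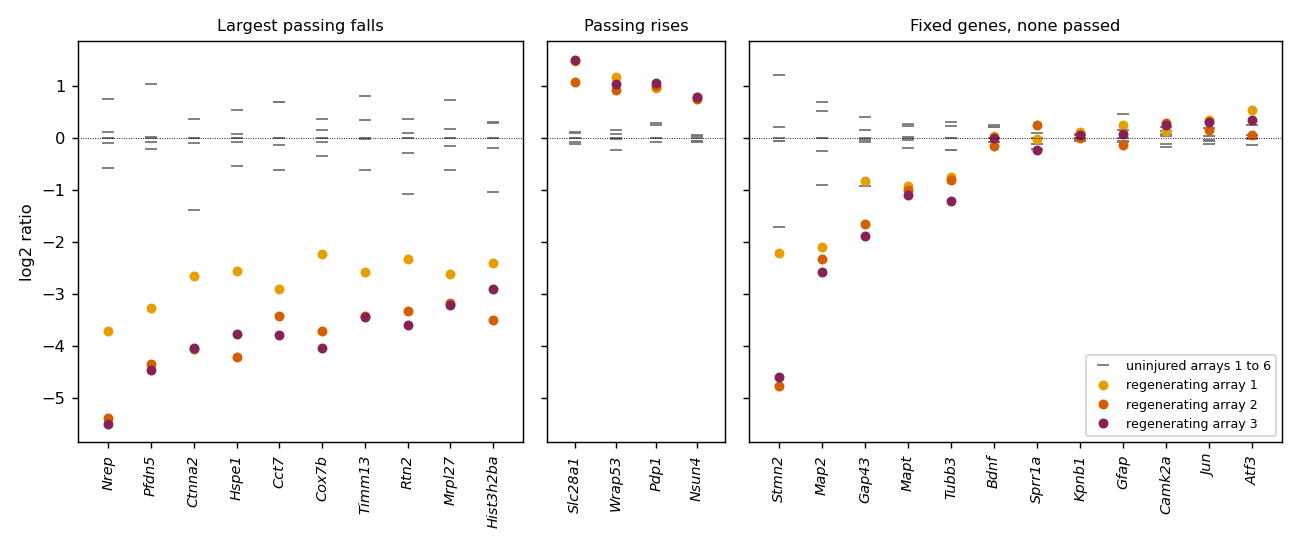
Log2 ratios in single arrays for the 10 largest falls and 4 of the 5 rises past the threshold, and for 12 fixed genes. These are the neuronal and injury genes named whatever their values, without *Nrep*, which passed and stands among the falls. None of the 12 passed. Coloured points are regenerating arrays 1 to 3 and grey bars the uninjured arrays. The *Nrep* points lie at -3.71, -5.39 and -5.51, those of *Slc28a1* between 1.08 and 1.51, and those of *Kpnb1*, *Bdnf* and *Gfap* around 0.

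Mitochondrial genes made up 20 of the 98 falls and 75 of the 530 genes that were at least 2-fold lower in all 3 arrays, out of 181 measured genes in 4 mitochondrial lists. Complex I of the respiratory chain, which passes electrons from NADH to ubiquinone, held the most calls of any list. Of its 34 measured genes 10 fell and none rose, and 24 were at least 2-fold lower in all 3 arrays (70.6%, against 3.73% of all genes). The list median was log2 -2.23, with -1.34, -2.43 and -2.51 in regenerating arrays 1, 2 and 3, while the median over all genes was 0.02. Uninjured array 1 had a median of -0.40 for these genes. Without regenerating array 1 the number that fell was 20, without uninjured array 1 it was 13, and without regenerating array 2 or 3 it was 0. The count at an unadjusted p under 0.05 in limma was 30.

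*Ndufa6* and its neighbours in size show how complex I genes behaved in single arrays. *Ndufa6* read 0.226, 0.102 and 0.103 in regenerating axons and 0.731 to 1.19 in uninjured axons (log2 -2.91 ± 0.42, limma adjusted p = 0.0306). *Ndufb2* read 0.237, 0.127 and 0.0818, against 0.902 to 1.15. *Ndufb7* read 0.207, 0.138 and 0.0864, against 0.548 to 1.10. All are accessory subunits, which surround the catalytic core. In each, array 1 was the least low of the regenerating arrays. The other complex I genes that fell were *Ndufa3*, *Ndufa13*, *Ndufb3*, *Ndufb4*, *Ndufb10*, *Ndufc2* and *Ndufs7*, between 2.85-fold and 6.75-fold lower. Core and accessory subunits both lay near the reference in some cases. The accessory subunit *Ndufb8* was nearest, at 0.925, 0.796 and 0.819. *Ndufs1*, the iron-sulphur subunit that takes electrons from the NADH side, read 0.809, 0.952 and 0.779. *Ndufv1*, which binds NADH, read 0.752, 0.808 and 0.584, and *Ndufs3* read 0.679, 0.726 and 0.670. None of these passed. The core subunits *Ndufs7*, which fell, *Ndufv2* (0.399, 0.128 and 0.0934) and *Ndufs8* (0.544, 0.352 and 0.424) were lower.

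Complexes II to V, the rest of the chain with the ATP synthase, had a lower median than complex I and a single call. Of 37 measured genes 1 fell, 26 were at least 2-fold lower in all 3 arrays, and the median was log2 -2.74, with -1.52, -2.80 and -3.49 by array. At an unadjusted p under 0.05 in limma there were 31 lower genes. The gene that fell was *Cox7b*, a small subunit of cytochrome oxidase, which read 0.213, 0.0759 and 0.0604, against 0.785 to 1.29. The complex III genes *Uqcr11* (0.193, 0.0131 and 0.0167) and *Uqcrq* (0.194, 0.0167 and 0.0171) had lower values still and did not pass. Their regenerating arrays lay a factor of more than 10 apart, which the SE of 1.19 and 1.09 on the log2 scale records. Complex II, succinate dehydrogenase, read near the reference. *Sdha* read 0.926, 0.983 and 1.14, *Sdhc* 0.824, 0.683 and 1.08, and *Sdhd* 1.06, 1.01 and 0.878. *Sdhb*, its iron-sulphur subunit, read 0.371, 0.352 and 0.373 and did not pass. Without regenerating array 1, 25 genes of complexes II to V fell, without uninjured array 1, 6 fell, and without regenerating array 2 or 3 none did.

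Messenger RNAs made inside the mitochondrion differed between arrays. *COX1* and *COX2*, core subunits of cytochrome oxidase encoded by mitochondrial DNA, were chosen here after their values were seen. *COX2* read 0.957, 0.0467 and 0.166 and *COX1* read 0.987, 0.260 and 0.483, and neither passed. In both, array 1 lay within the uninjured range and arrays 2 and 3 below it. Of 310 genes at least 4-fold lower in both arrays 2 and 3, 285 were at least 2-fold lower in array 1 too. *COX2* is among the 25 that were not, with *Rps24* (0.741, 0.186 and 0.169) and the muscle myosin gene *Myh1* (0.762, 0.0375 and 0.139). The 2 probe sets of *Rps24* read log2 -4.28 and 0.67, so its values average opposite readings.

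**Figure D3:**
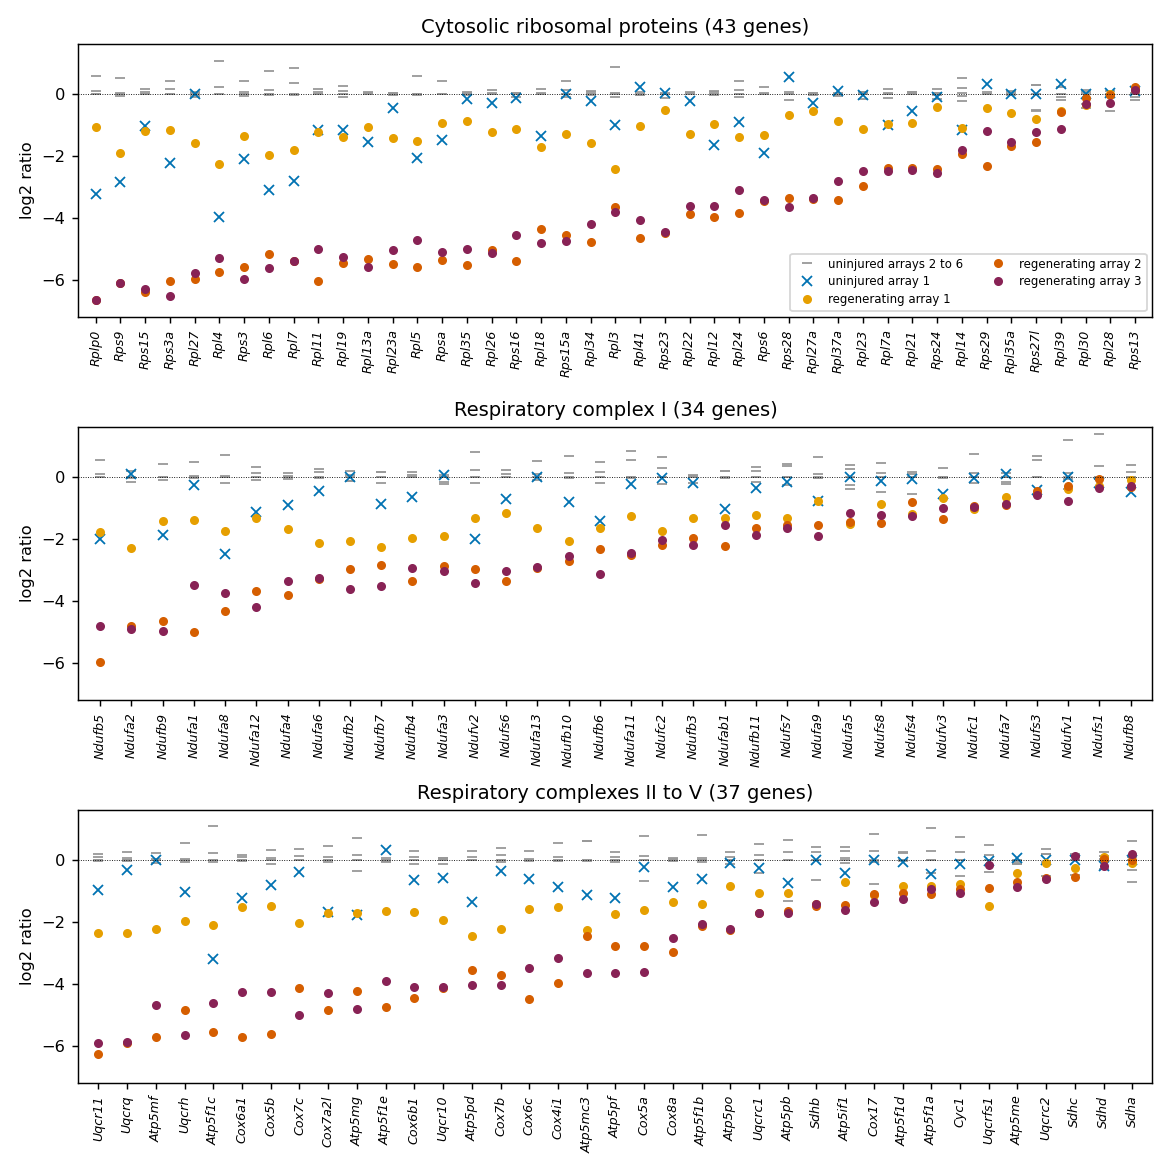
Log2 ratios of every measured gene for cytosolic ribosomal proteins (43), respiratory complex I (34) and complexes II to V (37), ordered by the mean of the regenerating arrays. Coloured points are regenerating arrays 1 to 3, blue crosses uninjured array 1 and grey bars uninjured arrays 2 to 6. Regenerating array 1 lies between the reference and arrays 2 and 3 for most ribosomal genes, and uninjured array 1 reaches below it in 15 of 43.

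The mitochondrial ribosome, import and protein quality genes were lower by smaller amounts. Of 71 measured genes of the mitochondrial ribosome 6 fell and 16 were at least 2-fold lower in all 3 arrays, and the median was log2 -0.54, with -0.51, -0.53 and -0.50 by array. Here the 3 regenerating arrays had nearly one median, unlike in the respiratory chain. *Mrpl27* of the large subunit read 0.162, 0.110 and 0.107, against 0.649 to 1.66, and fell 8.06-fold. *Mrpl54* read 0.244, 0.123 and 0.140, against 0.847 to 1.36. *Mrps21* of the small subunit read 0.225, 0.0926 and 0.211, against 0.762 to 1.10, and *Mrpl12*, *Mrps33* and *Mrps35* fell as well. Among 39 import, chaperone and protease genes 3 fell and 9 were at least 2-fold lower in all 3 arrays, with a median of log2 -0.23. *Hspe1*, the lid of the mitochondrial chaperonin, read 0.169, 0.0539 and 0.0729, against 0.689 to 1.45. Its partner *Hspd1*, given outside the naming rule, read 0.738, 0.955 and 0.879, against 0.818 to 2.04, and did not pass. *Timm13*, which guides proteins across the intermembrane space, read 0.167, 0.0930 and 0.0914, against 0.650 to 1.76. *Dnajc15*, a J-domain protein of the import motor, read 0.396, 0.212 and 0.212, against 0.860 to 1.16. The 9 genes of these lists that fell lay below every uninjured array, as did all 98 genes that fell and 12.5% of all genes. Outside the lists, and picked out after their values were seen, *Cox14* and *Coa8*, which assist assembly or upkeep of cytochrome oxidase, fell too (log2 -2.35 and -2.21).

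Cytosolic ribosomal protein genes had the lowest median of all lists and no call. Of 43 measured genes of 79 listed, 26 were at least 2-fold lower in all 3 arrays and 42 lay below the reference by their mean. The median was log2 -3.30, and by array it was -1.13, -4.49 and -4.22. Uninjured array 1 had a median of -0.46 and the other uninjured arrays lay near 0. None passed in limma, and 40 were lower at an unadjusted p under 0.05. Without regenerating array 1, 34 fell, without uninjured array 1, 1 fell, and without regenerating array 2 or 3 none did. With the divisor counted with the error of a median of 3 arrays instead of 1 array, 20 fell. Probe sets for ribosomal proteins can also read transcripts of their many pseudogenes.

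*Rplp0*, a protein of the ribosomal stalk, read 0.478 in array 1 and 0.01 in arrays 2 and 3, which is the lowest value of the table and may be a bound. Uninjured array 1 read 0.105, below regenerating array 1, and the other uninjured arrays 0.988 to 1.47. The groups overlapped through that array, and the gene did not pass (log2 -4.78 ± 2.02, limma adjusted p = 0.360). *Rps9* read 0.265, 0.0146 and 0.0144 with uninjured array 1 at 0.138. *Rpl4* read 0.209, 0.0184 and 0.0254 with uninjured array 1 at 0.0640. Uninjured array 1 lay below regenerating array 1 in 15 of the 43 genes, but below both arrays 2 and 3 in 1. It was at least 2-fold below the reference in 19, and none of uninjured arrays 2 to 6 was that low in any of the 43. Regenerating arrays 2 and 3 were both at least 8-fold below in 30 genes and array 1 in none. *Rpl3*, near the site of peptide bond formation, was closest to the threshold of the members named here (0.187, 0.0791 and 0.0707, limma adjusted p = 0.0573), though its 2 probe sets read log2 -4.89 and -1.71. A few members did not share the low values. *Rps13* read 1.09, 1.17 and 1.09, and *Rpl28* read 0.988, 0.979 and 0.812.

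Many ribosomal protein transcripts begin with a C followed by a run of pyrimidines, the tract through which growth signals control their translation. The tract was looked for on the sense strand at the first transcribed base of the promoter table (RefSeq, GRCr8), as C followed by at least 4 pyrimidines. It was present in 12 of the 38 ribosomal protein genes with a promoter (31.6%), and in 2.64% of 11733 measured genes with one. Of the 23 ribosomal genes in that table that were at least 2-fold lower in all 3 arrays, 7 had it, so most of the low genes had none at the annotated start. The start windows shown are those of the 5 with the lowest means among these 7. Their means run from the lowest of the list (*Rplp0*) to near its median (*Rpl34*). They run from 10 bases before the start to 20 bases from it on, with the tract in capitals.
Rplp0 (chr12:46718371-46718400, minus strand): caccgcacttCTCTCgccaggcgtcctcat
Rps15 (chr7:10068096-10068125, minus strand): acaccgcttcCTTTTCCCagcagccgccaa
Rps3a (chr2:173827023-173827052, minus strand): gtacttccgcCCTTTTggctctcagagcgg
Rpl19 (chr10:83519054-83519083, plus strand): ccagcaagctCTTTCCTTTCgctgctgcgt
Rpl34 (chr2:221962264-221962293, minus strand): tccttttcctCTTCCggggacggtgcttag

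Each of these 5, chosen for low means, was far lower in arrays 2 and 3 than in array 1. *Rps15* read 0.431, 0.0118 and 0.0128, *Rps3a* 0.445, 0.0152 and 0.0109, *Rpl19* 0.380, 0.0226 and 0.0259, and *Rpl34* 0.329, 0.0365 and 0.0538. A match describes letters in a window and not a site in use, and none of these genes passed.

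Translation factors were lower in part. Of 44 measured genes 2 fell and 10 were at least 2-fold lower in all 3 arrays, with a median of log2 -0.49. *Eif3i*, a subunit of the initiation factor that prepares the small ribosomal subunit, read 0.187, 0.224 and 0.206, against 0.469 to 1.22. Its 3 regenerating arrays agreed closely, and uninjured array 1 was the lowest uninjured one. *Eef2*, which moves the ribosome along the messenger RNA, passed at 0.451, 0.398 and 0.420, but its 2 probe sets read log2 -2.52 and 0.04. Lower values stood without a call, in genes picked out after these were seen. *Eif3f* had the lowest mean of all genes, at 0.175, 0.0144 and 0.0107, against 0.332 to 2.32 (log2 -5.06 ± 1.39, limma adjusted p = 0.129). The elongation factor genes *Eef1b2* (0.286, 0.0173 and 0.0103) and *Eef1a1* (0.179, 0.0292 and 0.0194) overlapped uninjured array 1. *Eef2* was also the 1 fall among 41 measured messenger RNAs that earlier work had reported in axons, a list whose median was log2 -0.19.

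Protein folding and breakdown genes were lower in part. The CCT chaperonin, which folds actin and tubulin, had 2 falls and 5 genes at least 2-fold lower in all 3 arrays among 10, with array medians of -1.07, -1.20 and -1.31. *Cct3* read 0.410, 0.481 and 0.424, against 0.947 to 1.07. Among 14 prefoldin and tubulin cofactor genes 2 fell, *Pfdn5* being described above, and the array medians of -0.56, -0.89 and -1.31 lay further apart. *Tbcb*, a tubulin folding cofactor, read 0.397, 0.255 and 0.217, against 0.641 to 1.03. Of 38 proteasome genes 1 fell, *Psma4* of the core ring, which read 0.229, 0.266 and 0.319, against 0.793 to 1.32. In all, 18 proteasome genes were lower at an unadjusted p under 0.05, and the array medians were -0.65, -0.67 and -0.72. Among 41 ubiquitin genes *Rbx1*, the RING subunit of cullin ligases, fell (0.377, 0.324 and 0.355, against 0.785 to 1.21), and the array medians were -0.18, -0.17 and -0.39. None of 36 heat shock and J-domain genes passed, and the median was log2 -0.15. At an unadjusted p under 0.05 in limma there were 6 (16.7%, against 12.4% of all genes). *Bag1*, a cofactor of Hsp70, read 0.329, 0.0714 and 0.0561, with uninjured array 1 at log2 -2.63 and inside the regenerating range.

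**Figure D4:**
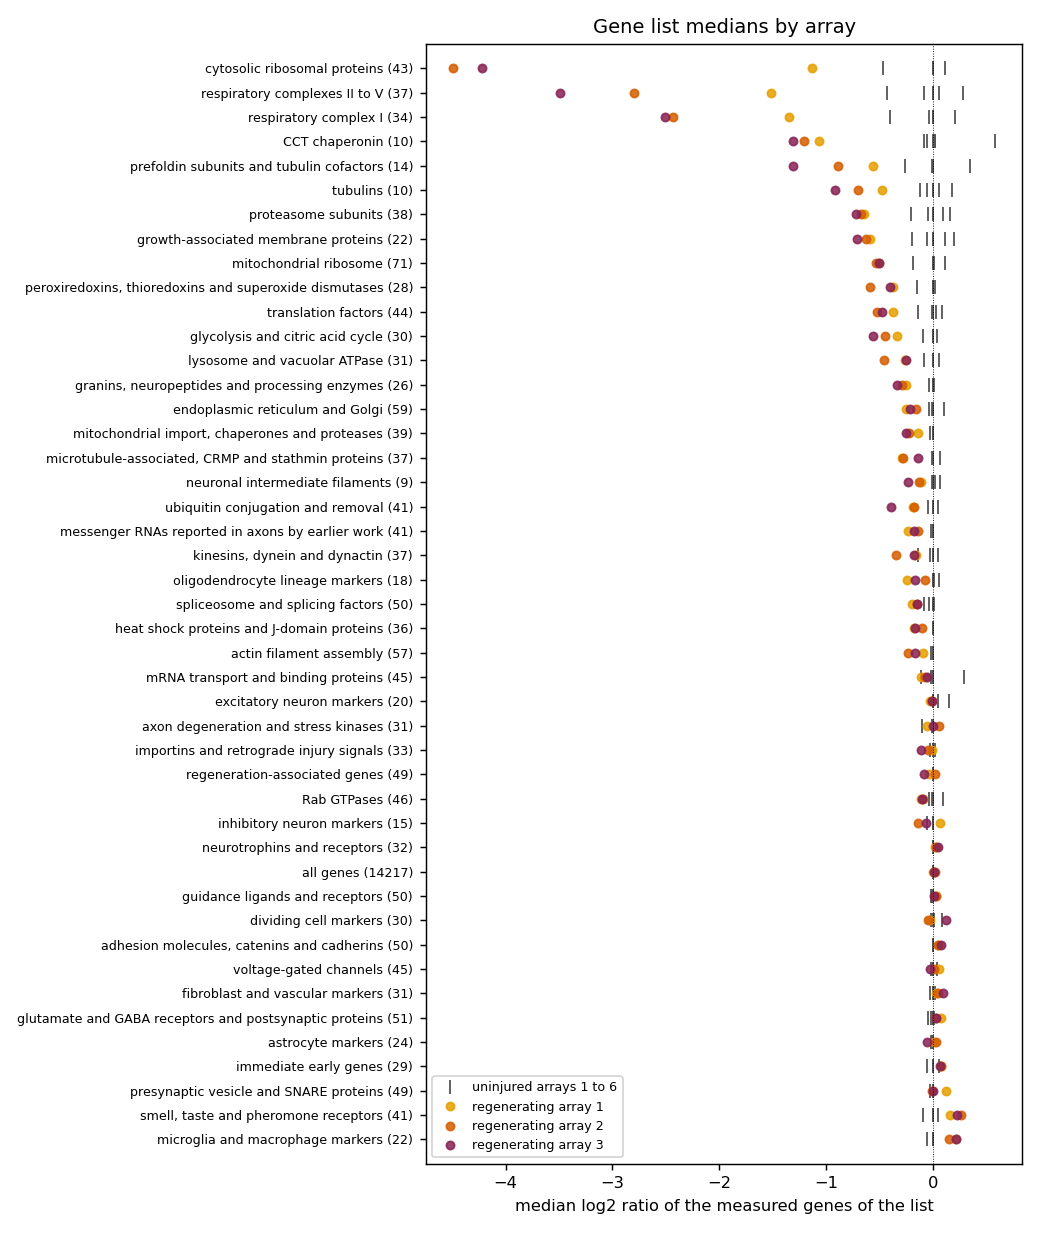
Median log2 ratio of each gene list on single arrays, with the number of measured genes in brackets. Coloured points are regenerating arrays 1 to 3 and grey bars the 6 uninjured arrays. The cytosolic ribosome and the respiratory chain lie apart on the left with array 1 nearest to 0, the CCT, proteasome and mitochondrial ribosome lists lie between -1.4 and -0.4 with the 3 arrays closer together, and synaptic, guidance and cell type lists lie near 0.

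Redox and energy genes outside the respiratory chain were lower in part. Of 28 measured peroxiredoxin, thioredoxin and superoxide dismutase genes, a list that also holds other protective enzymes, 2 fell. *Park7*, whose product DJ-1 protects against oxidative stress, read 0.185, 0.114 and 0.122, against 0.812 to 1.28 (log2 -2.87 ± 0.31, limma adjusted p = 0.0168). *Gstp1*, a glutathione transferase, read 0.453, 0.294 and 0.293, against 0.912 to 1.36. *Sod3*, the secreted dismutase, read 1.67, 1.87 and 1.45 and did not pass. Of 30 glycolysis and citric acid cycle genes none passed (9 at an unadjusted p under 0.05 in limma), and the median was log2 -0.40. *Aldoa*, the glycolytic aldolase, read 0.315, 0.264 and 0.147, and *Idh3g* of the citric acid cycle read 0.339, 0.226 and 0.144.

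Cytoskeletal and growth genes came next, since a regrowing axon builds microtubules and a growth cone. None of 10 measured tubulin genes passed, 5 were lower at an unadjusted p under 0.05 in limma, and the median was log2 -0.70. *Tubb2a* read 0.205, 0.0543 and 0.0398, against 0.311 to 1.21, with uninjured array 1 lowest. *Tubb2b* read 0.310, 0.0508 and 0.0840, against 0.377 to 1.48. Both are beta-tubulins of developing neurons, and in both regenerating array 1 lay under uninjured array 1. *Tubb3*, the neuron-specific beta-tubulin, read 0.593, 0.569 and 0.432, against 0.849 to 1.23, and its 2 probe sets read log2 -1.98 and 0.13.

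Among 37 microtubule-associated, CRMP and stathmin genes, with *Nrep* in the list, 2 fell, 8 were at least 2-fold lower in all 3 arrays, and the median was log2 -0.21. *Crmp1*, which relays semaphorin signals, read 0.439, 0.310 and 0.361, against 0.740 to 1.21. *Map2*, the dendritic microtubule protein gene, read 0.233, 0.199 and 0.167, against 0.534 to 1.62 (limma adjusted p = 0.0689). *Mapt*, which encodes tau, read 0.530, 0.501 and 0.465, against 0.877 to 1.21 (limma adjusted p = 0.0573). The 3 regenerating arrays lay below all uninjured ones in both, and the 2 probe sets of *Map2* read -4.01 and -0.66. Among 57 actin genes *Cfl2*, a cofilin that severs filaments, fell (0.334, 0.289 and 0.397, against 0.829 to 1.32), with probe sets at -2.61 and -0.53. Of 9 neuronal intermediate filament genes none passed and none had an unadjusted p under 0.05 in limma. *Nefm*, the medium neurofilament, read 0.431, 0.692 and 0.255, against 0.608 to 2.56.

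Growth-associated membrane proteins had a median of log2 -0.62 over 22 genes, 6 of them at least 2-fold lower in all 3 arrays. None passed, and 13 were lower at an unadjusted p under 0.05 in limma. *Stmn2*, a growth cone regulator of microtubules, read 0.215, 0.0365 and 0.0414, against 0.304 to 2.31. *Gpm6a*, a membrane glycoprotein of growth cones, read 0.207, 0.0785 and 0.0218, against 0.242 to 2.31. In both, all regenerating arrays lay under uninjured array 1, the lowest of its group. *Gap43*, the classical growth cone protein gene, read 0.565, 0.318 and 0.271, against 0.530 to 1.32, so the groups overlapped (log2 -1.45 ± 0.48, limma adjusted p = 0.211). Its 2 probe sets read -3.10 and 0.20.

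No injury or regeneration gene known from cell bodies passed as higher, and only 5 of all 14217 genes did. Of 49 measured regeneration-associated genes *Nrep* fell and none rose, and the median was log2 -0.06. *Atf3*, a transcription factor induced by axotomy, read 1.46, 1.04 and 1.27, against 0.909 to 1.19. *Jun* read 1.27, 1.11 and 1.24, against 0.917 to 1.14, and *Sprr1a*, a gene induced in injured sensory neurons, read 0.983, 1.19 and 0.852. None of these 3 passed, and each overlapped the uninjured arrays. *Sox11* read 1.70, 1.30 and 1.57, inside an uninjured range of 0.491 to 2.09, and the neuropeptide gene *Gal* read 1.17, 1.6 and 1.28. Among 29 immediate early genes *Btg1*, an antiproliferative gene, fell (0.116, 0.155 and 0.134, against 0.894 to 2.27). None of 33 importin and retrograde signal genes passed (1 at an unadjusted p under 0.05 in limma). *Kpnb1*, importin beta, read 1.08, 1.0 and 1.04, against 0.955 to 1.05 (log2 0.05 ± 0.14). Among 31 degeneration and stress kinase genes *Bad*, a promoter of cell death, fell (0.349, 0.313 and 0.281, against 0.714 to 1.05).

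Few motor, secretory and RNA-handling genes passed. At an unadjusted p under 0.05 in limma, 12 motor genes and 13 endoplasmic reticulum and Golgi genes were lower, and 1 motor gene was higher. At least 2-fold lower in all 3 arrays were 10.8% of the motor list and 15.3% of the endoplasmic reticulum and Golgi list. The lysosome list had 22.6%, the Rab list 4.35% and all genes 3.73%. Among 37 kinesin, dynein and dynactin genes *Mapk8ip1*, a scaffold that links cargo to kinesin, fell (0.364, 0.241 and 0.202, against 0.764 to 1.15), with probe sets at -3.01 and -0.87. Among 59 endoplasmic reticulum and Golgi genes *Dad1*, of the enzyme that adds sugars to new proteins, fell (0.206, 0.317 and 0.274, against 0.716 to 1.29). Array 1 was the lowest of the regenerating arrays there, against the usual order. Of 31 lysosome and vacuolar ATPase genes none passed (11 at an unadjusted p under 0.05 in limma), with *Atp6v1f* of the proton pump at 0.332, 0.0222 and 0.0259. Of 46 Rab GTPase genes none passed either (11 at an unadjusted p under 0.05 in limma). The granin and neuropeptide list held 2 falls among 26 genes. *Chga*, chromogranin A of dense-core vesicles, read 0.261, 0.164 and 0.174, against 0.899 to 1.69. *Cck*, the neuropeptide cholecystokinin, read 0.231, 0.200 and 0.255, against 0.761 to 1.80. Both groups of arrays were well apart in each.

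Neither messenger RNA transport proteins (45 genes, median log2 -0.08) nor splicing factors (50 genes, median -0.16) held a call, with 3 and 7 genes at an unadjusted p under 0.05 in limma. The splicing genes *Snrpd2* (0.305, 0.0554 and 0.0810) and *Snrpe* (0.378, 0.0966 and 0.130), both of the ring that holds small nuclear RNAs, had the lowest values. The cold-inducible RNA-binding gene *Rbm3* read 0.328, 0.156 and 0.202, against 0.356 to 1.47.

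Synaptic, channel and surface genes lay near the reference. Presynaptic and SNARE genes (49), glutamate and GABA receptor genes with postsynaptic proteins (51), voltage-gated channels (45) and guidance genes (50) held no call, with 4, 1, 5 and 3 genes at an unadjusted p under 0.05 in limma. Their medians were log2 0.10, 0.06, 0.06 and 0.03, beside 0.02 over all genes. *Gabra2*, a GABA receptor subunit, read 2.11, 2.33 and 2.57, against 0.512 to 1.65, and is 1 of the 5 genes at least 2-fold higher in all 3 arrays. It did not pass (limma adjusted p = 0.264). The sodium channel gene *Scn1a* read 1.19, 2.30 and 2.05, against 0.733 to 1.16, and the potassium channel gene *Kcnd2* read 0.597, 0.435 and 0.529, against 0.726 to 1.67. The SNARE gene *Stx7*, of endosomes, read 0.299, 0.0731 and 0.0902, against 0.635 to 1.53, and did not pass. *Snap25*, the SNARE of synaptic vesicle release, read 0.905, 0.702 and 0.389 inside an uninjured range of 0.505 to 2.40 but for array 3.

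Among 50 adhesion genes *Ctnna2* fell and none rose, and the median was log2 0.04. *Nrxn3*, a presynaptic adhesion molecule, read 2.01, 1.99 and 1.84, against 0.669 to 1.22, with probe sets at 0.19 and 1.72. *Cntn2*, an axonal adhesion molecule, read 1.65, 1.88 and 1.49, against 0.702 to 1.30. Neither passed, and in both the 3 regenerating arrays lay above all uninjured ones. Of 32 neurotrophin genes and receptors none passed. At an unadjusted p under 0.05 in limma there were 5 (15.6%, against 12.4% of all genes). *Bdnf* read 1.03, 0.904 and 1.0, and *Camk2a*, a kinase gene whose messenger RNA is known from dendrites, read 1.10, 1.23 and 1.19. *Frs2*, an adaptor of growth factor receptors, read 0.355, 0.286 and 0.263, with probe sets at -3.28 and -0.20 (limma adjusted p = 0.0567).

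Markers of other cells were read to see what the axon chamber could hold besides axons. Of 24 astrocyte, 18 oligodendrocyte lineage, 22 microglia and macrophage, 31 fibroblast and vascular and 30 dividing cell genes none passed. At an unadjusted p under 0.05 in limma there were 2, 2, 2, 4 and 4 genes. These were 8.3%, 11.1%, 9.1%, 12.9% and 13.3% of the lists, against 12.4% of all genes. The list medians were log2 0.06, -0.17, 0.24, 0.06 and 0.04. Beside these, 41 smell, taste and pheromone receptor genes, a class taken to be silent in these cells, had a median of 0.15. All 3 regenerating arrays lay below every uninjured array in 4, 6, 1, 2 and 2 genes of these lists and above in 3, 2, 5, 3 and 3, so members of a list went both ways. *Gfap*, the astrocyte filament gene, read 1.19, 0.905 and 1.06, against 0.953 to 1.37, and *Fabp7* of the same list 0.307, 0.191 and 0.279, against 0.709 to 14.7. *Csf1r* of microglia read 2.03, 1.13 and 1.56, against 0.692 to 1.07, while *Mrc1* of macrophages read 0.501, 0.279 and 0.679. *Fn1* of fibroblasts read 1.78, 1.65 and 1.65, against 0.616 to 1.28, while the collagen gene *Col3a1* read 0.721, 0.689 and 0.669. *Olig1* of the oligodendrocyte lineage read 0.193, 0.134 and 0.114, below an uninjured range of 0.933 to 6.23 whose top is uninjured array 4, and the myelin gene *Mog* read 1.08, 1.76 and 1.37. Excitatory and inhibitory neuron markers had medians of -0.08 over 20 genes and -0.04 over 15, and *Cck* was the 1 call. A ratio carries no signal level, so whether any marker is present in these samples cannot be read from it.

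Few genes rose, by about 2-fold. *Slc28a1*, a sodium-coupled nucleoside transporter gene, read 2.78, 2.11 and 2.85, against 0.920 to 1.08 (log2 1.35 ± 0.20, limma adjusted p = 0.0306). *Wrap53*, which helps small RNAs reach Cajal bodies, read 2.25, 1.91 and 2.07, against 0.848 to 1.11. *Pdp1*, the phosphatase that switches on pyruvate dehydrogenase, read 1.94, 2.00 and 2.08, against 0.953 to 1.21. Array 1 lay between the others in *Slc28a1*, above them in *Wrap53* and below them in *Pdp1*. *Nsun4*, a methyltransferase of mitochondrial ribosomal RNA, read 1.73, 1.68 and 1.72, against 0.943 to 1.04. The fifth gene that rose, *LOC100912188*, is an uncharacterised locus outside the naming rule and was picked out after its values were seen, at 2.18, 2.34 and 2.18. Larger means were seen without a call. *St3gal6*, a sialyltransferase gene, had the highest mean of all genes, at 2.01, 3.68 and 2.98, against 0.444 to 1.48 (log2 1.49 ± 0.54, limma adjusted p = 0.263). *Cdca7*, a cell division gene, read 2.52, 2.87 and 2.18 and overlapped an uninjured range of 0.630 to 2.19. With *Gabra2*, *Slc28a1* and *LOC100912188* these are the 5 genes at least 2-fold higher in all 3 arrays.

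The 6 genes next in order of p on the high side did not pass. *Plod2*, which modifies collagen lysines, read 1.92, 2.58 and 1.90, against 0.865 to 1.14 (limma adjusted p = 0.0573). *Ttc19*, an assembly factor of complex III, read 2.21, 1.80 and 1.99, against 0.837 to 1.09. *Polr3g*, *Ralgdsl2*, *Tyr* and *Tnfaip8l3* had ratios between 1.65 and 2.03. All 6 lay above every uninjured array, as 10.3% of all genes did, and their adjusted p-values in limma lay between 0.0573 and 0.0643.

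The 3 regenerating arrays were then set against each other. Over 14217 genes, which share one divisor and are not independent, log2 ratios correlated at r = 0.783 between arrays 1 and 2, 0.779 between 1 and 3 and 0.890 between 2 and 3. Among the 530 genes at least 2-fold lower in all 3 arrays, array 1 was nearest to the reference in 404, and the array medians were -1.60, -2.32 and -2.30. Among the 98 genes that fell the medians were -1.72, -2.06 and -2.02, a smaller gap between array 1 and the others. The test favours genes whose arrays agree by construction. The gap was widest in the ribosomal list and was not seen in the medians of the mitochondrial ribosome and the proteasome.

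**Figure D5:**
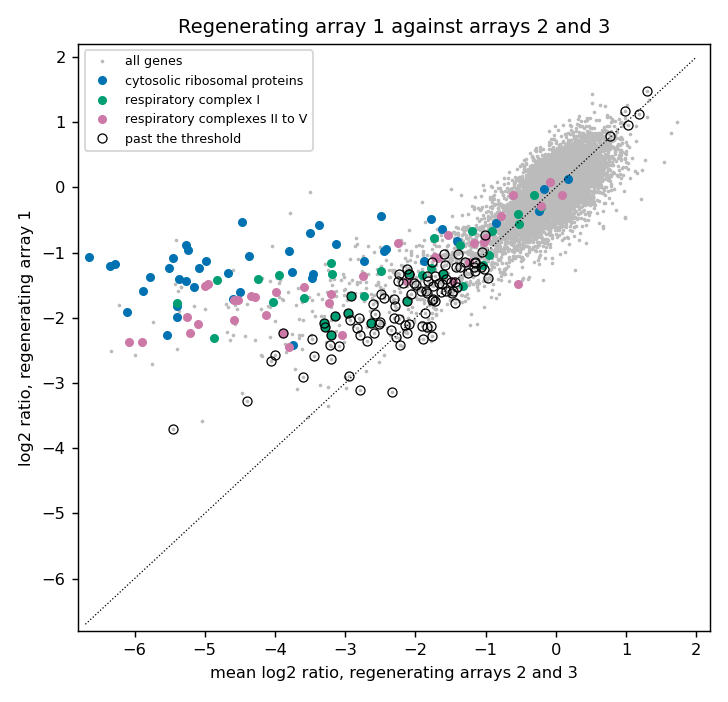
Log2 ratio of each of 14217 genes in regenerating array 1 against its mean in arrays 2 and 3, with equality as a dotted line. Ribosomal protein genes (blue) extend to the far left at array 1 values around -1.13, complex I genes (green) and complexes II to V (pink) lie nearer to the line, and the 103 genes past the threshold (open circles) lie nearer to it than most ribosomal genes.

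Probe sets at the lowest ratio of the table, 0.01, mark where arrays 2 and 3 may be bounded. Named ones, listed for that reason, belong to *Rplp0*, *Rpl7*, *Apc*, *Apc2*, *Mcf2l*, *Myh1* and *Ccni*. *Apc*, which anchors microtubule ends in growth cones, had such a probe set at 0.302 in array 1 and 0.01 in arrays 2 and 3, with uninjured array 1 at 0.265. As a gene of 3 probe sets it read 0.534, 0.150 and 0.126, and the probe sets ranged from log2 -5.01 to -0.27. *Apc2*, its neuronal relative, read 0.238, 0.0204 and 0.0171, against 0.253 to 2.43, with regenerating array 1 just below uninjured array 1.

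The same genes in the neuronal compartment are given side by side, though the 2 comparisons may not share a divisor. Over genes, regenerating arrays 1 to 3 correlated with the mean of uninjured arrays 1 to 3 at r = 0.179, 0.29 and 0.285. With the mean of uninjured arrays 4 to 6 they correlated at -0.019, -0.002 and -0.004. Neuron arrays 1 to 3 correlated at -0.008, 0.032 and -0.012 with the first mean. With the second they correlated at 0.134, 0.149 and 0.126. Which arrays formed each divisor was not tested. *Nrep*, lower in regenerating axons, read 21.3, 11.9 and 26.6 in the 3 neuron arrays. *Cct7* read 44.2, 26.8 and 46.8, *Btg1* 58.0, 49.5 and 67.7, and *Park7* 9.52, 4.41 and 10.5. The 43 ribosomal genes had a median of log2 -0.61 in neurons, and members went both ways. *Rplp0* read 0.883, 0.361 and 0.881 and *Rps15* 0.831, 0.318 and 1.07. *Rpl6* read 5.33, 2.54 and 5.47 and *Rpl3* 3.77, 2.02 and 3.84. Of the genes that rose, *Slc28a1* read 0.584, 0.758 and 0.541 in neurons and *Pdp1* read 2.39, 1.54 and 2.86.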

How the data were processed

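Gene expression was measured on rat GeneChip arrays, and 10 of 13 arrays were used here. The authors deposited linear ratios per probe set, and the submitters' processing notes name RMA without a version. How the ratios were formed is not given in the sources used here. The tests had been planned for log2 signals and were fitted to log2 of the deposited ratios. Symbols came from the array's annotation. Of the probe sets, 436 had several symbols and 9780 none. A gene's value was the mean of its probe sets (4525 genes had more than 1). The 3 regenerating arrays were tested against 0 with limma 3.58.1 in R 4.3.3 (lmFit, eBayes). The spread was pooled with that of uninjured arrays 1 to 3 and 4 to 6 about their set means, and the divisor was counted with an error equal to that of 1 array. P-values were adjusted by Benjamini-Hochberg. On simulated ratios the procedure was tested before use. The members, gene lists and naming rule were chosen with earlier results of these data known. The rule names the 10 largest passing falls and rises without overlap between groups (filled up in order of p, LOC and RGD symbols left out), up to 3 passing genes a list and direction, otherwise up to 2 of the largest differences, and 13 fixed genes. Alternatives covered the reference error, scaling, the probe set summary, low ratios, the spread and each array left out.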

Additional observations from a re-analysis of the deposited data

Results flagged for a closer look

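Among 141 values tested for a stray array within the 6 measured uninjured arrays, 46 had one, where chance flags about 1 in 20 groups of freely varying values. Here each set of 3 has its median at 1 by construction, so that rate need not hold. The values below are log2 ratios unless stated, and the part of these arrays in the results was not tested.

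Most strays were low values of uninjured array 1 in genes that were low in regenerating axons. For genes past the threshold they were *Ctnna2* (-1.39), *Hist3h2ba* (-1.04), *Tbcb* (-0.64), *Ndufb7* (-0.87), *Ndufb4* (-0.67), *Mrps21* (-0.39) and *Eif3i* (-1.09). Ribosomal protein genes supplied *Rplp0* (-3.25), *Rps9* (-2.86), *Rps15* (-1.06), *Rps3a* (-2.25), *Rpl19* (-1.18), *Rpl34* (-0.24), *Rpl4* (-3.97) and *Rpl7* (-2.81), and the median of that list (-0.46) was flagged too. The remaining ones were *Tubb2a* (-1.69), *Tubb2b* (-1.41), *Gap43* (-0.92), *Atp6v1f* (-1.42), *Bag1* (-2.63), *Ndufv2* (-2.0), *Uqcr11* (-0.97), *Eef1b2* (-2.02), *Eef1a1* (-2.77), *Snrpd2* (-1.63), *Snrpe* (-0.33), *COX1* (-0.54), *COX2* (-0.42) and *Mcf2l* (-1.64). Hybridisation controls stood out on the same array at a ratio of 1.18.

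Uninjured array 4 was high for *Olig1* (2.64), *Fabp7* (3.87), *Pdgfra* (3.68), *Ndufs1* (1.39) and *Gstp1* (0.45), and low for *Csf1r* (-0.53) and *Rpl28* (-0.56). The other strays were array 2 for *Ndufa13* (0.50), array 3 for *Pfdn5* (1.04), array 5 for *Ralgdsl2* (0.29) and *Sdhc* (-0.51), and array 6 for *Tnfaip8l3* (0.27), *Ndufv1* (1.17), *St3gal6* (-1.17) and *Fn1* (-0.70).

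Probe sets without a symbol were not part of the comparison. Tested in the same way with limma, 11 of 9780 were lower past the threshold and 0 higher, with 885 at an unadjusted p under 0.05. At least 2-fold lower in all 3 regenerating arrays were 112 of them (1.15%).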

How the results depend on the processing

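The number of called genes depended on the error given to the divisor. In the order lower and higher, with 98 and 5 in the report, limma called 755 and 183 genes with the error of a median of 3 arrays, 1990 and 1588 with no error, 1624 and 1094 in a 2-group fit against uninjured arrays 1 to 6, and 1585 and 996 against arrays 2 to 6, a setting chosen after seeing the data. Quantile normalisation gave 239 and 10, and a pseudocount of 0.1 gave 17 and 4. The pseudocount was added to the ratios while the reference stayed at log2 0, so a ratio of 1 read above 0 there. It raised every value, and a turn to a positive sign in that setting follows in part from this offset. Leaving out 1 array gave 0 to 361 lower and 0 to 15 higher genes. Same-numbered arrays did not deviate together (r = -0.393, -0.118 and -0.195). With 3 arrays in a set this cannot show whether the numbers pair anything. With the replicate number as a block in the 2-group fit, 319 and 38 were called. All 103 called genes were called again in the 4 settings that treat the divisor differently. Where only the error of the divisor was lowered, this follows by construction. The 2-group fits leave out the added error as well, so the recurrence does not check the calls. No named gene past the threshold reversed. Near 0, *Bdnf* turned to 0.11 (pseudocount) and ran from -0.069 to 0.026 without 1 array. *Sprr1a* turned to 0.037 (2-group fit), 0.14 (pseudocount), 0.0082 (array weights), 0.068 (replicate block) and 0.046 (against arrays 2 to 6), and ran from -0.13 to 0.11 without 1 array. *Gfap* turned to -0.015 (2-group fit) and ran from -0.031 to 0.17 without 1 array. *Sdhd* read 0.11 and *Rpl28* 0.033 with the pseudocount, its offset included. Without 1 array, *Sdha* ran from -0.068 to 0.081 and *Sdhd* from -0.086 to 0.052. The 3′ minus 5′ difference between groups of -0.66 was -0.43 for beta-actin alone and -0.83 to -0.51 without 1 array. List medians moved by more than their spread between arrays in 129 of 989 recomputations. Of these, 39 were with the pseudocount, whose offset raises every median. Signal over background is unknown, since ratios carry no level.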
